A study of Mus musculus with 5 samples.

Results

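The nuclear genes of the mitochondrial respiratory chain were examined in sorted mouse haematopoietic stem and progenitor cells (HSPCs). Members were the rows of the deposited RNA-seq table whose gene symbol began with Nduf, Sdha to Sdhd, Uqcr, Cox followed by a digit, or Atp5, together with Cyc1 and Cycs. This rule found 97 of the 11352 listed genes. They comprised 35 genes of complex I, 4 of complex II, 9 of complex III, 13 of complex IV, 14 of complex V, the cytochrome c gene Cycs, and 21 assembly factors and related genes whose symbols share these prefixes. The rule used symbols and no measured value.

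The 5 libraries fell into 2 groups. Cux1-low libraries (n = 2) came from mice with the genotype Cux1-knockdown, and Cux1-low;NrasG12D libraries (n = 3, called NrasG12D libraries from here on) came from mice with the genotype Cux1-knockdown;NrasG12D. CUX1 is a DNA-binding homeodomain protein, and the G12D change keeps the GTPase NRAS in its active state. Both groups therefore carried the Cux1 knockdown, and both had been given pI:C, a synthetic double-stranded RNA, and doxycycline over 4 weeks. The cells were sorted as negative for lineage markers and CD135 and positive for KIT and SCA1. Age, sex, strain, the promoters that drive the alleles, and whether each library was 1 animal or a pool are not given in the sources used here, and p-values therefore reflect library-to-library spread only, which may be technical. No library with normal Cux1 or with NrasG12D alone was analysed here, so the comparison concerns what differs with NrasG12D on a background of low Cux1.

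The respiratory chain sits in the inner mitochondrial membrane. Complex I takes electrons from NADH and complex II takes them from succinate, and both pass them to coenzyme Q. Complex III hands them to cytochrome c, and complex IV hands them to oxygen. Complexes I, III and IV pump protons, and complex V, the ATP synthase, uses the returning protons to make ATP. Most subunits are encoded in the nucleus, while a core set in complexes I, III, IV and V is encoded by mitochondrial DNA. Quiescent haematopoietic stem cells are known to lean on glycolysis, and respiration is known to increase as they divide and differentiate.

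Read numbers were inferred from the steps of the deposited values, called normalized CPM, and are estimates that were used in no test. By them, each library held 16489711 to 20262498 reads over the listed genes, and 1 read was worth 0.0481 to 0.0608 normalized CPM. NrasG12D library 3 stood apart from libraries 1 and 2. Along the first principal component of all genes (73.8% of the variance), Cux1-low fell at -32.8 and -30.1. NrasG12D libraries 1 and 2 had scores of 29.1 and 38.0, and the score of library 3 was -4.16. Numbers of genes passing the test are therefore given with and without it for the complexes, assembly factors, genes outside the symbol rule and markers. Levels and log2 fold changes are mostly given over all 5 libraries. All 7 stem and progenitor markers examined (Kit, Ly6a, Cd34, Procr, Slamf1, Mecom and Hlf) were listed. Their summed level was 2823 to 2906 normalized CPM in Cux1-low and 1158 to 2050 in NrasG12D libraries, a sum carried mostly by Kit and Cd34. None of the 7 passed limma, and 5 had an unadjusted limma p under 0.05, against 31.4% of all genes. The sign was negative for 6. Their log2 fold changes were -2.13 for Procr, -1.73 for Mecom, -1.51 for Hlf, -1.17 for Kit, -0.96 for Ly6a and -0.64 for Cd34. Slamf1 had a positive sign (log2 fold change 0.60). Without NrasG12D library 3, 6 of the 7 fell by limma, against 19.4% of all genes.

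Respiratory chain genes were higher in the NrasG12D libraries nearly throughout, by a small factor that varied among groups of genes. The ratio of summed group means was 1.15 for the assembly factors, 1.18 for complex II and 1.46 for complex IV. Of the 97 genes, 91 had a positive and 6 a negative log2 fold change on the log2(normalized CPM + 1) scale. The median was 0.41, against -0.003 over all 11352 genes, of which 49.7% were positive. Summed over the 97 genes, the level was 13598 and 13757 normalized CPM in Cux1-low and 18928, 19016 and 15301 in NrasG12D libraries, a ratio of group means of 1.30. These genes held 1.40% to 1.41% of the summed values in Cux1-low and 1.53% to 1.85% in NrasG12D libraries. Every NrasG12D library lay above every Cux1-low library for 76 of the 97, where this held for 26.5% of all genes. The order was the opposite for 1 gene, Ndufa10, where this held for 27.0% of all genes, and the groups overlapped for 20.

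Single genes rarely passed the test. With limma and Benjamini-Hochberg adjustment over all genes (threshold 0.05), 1 of the 97, Ndufa12, rose and 0 fell, while 0.255% of all genes rose and 0.872% fell. At an unadjusted p under 0.05, 62 of the 97 were higher and 0 lower, against 14.8% of all genes higher. Robust limma also called 1 higher and 0 lower. In the authors' deposited table, 29 of the 97 were higher and 0 lower at an adjusted p under 0.05, against 6.97% of all genes higher and 9.14% lower. By complex, that table had 12 of 35 higher in complex I, 0 of 4 in II, 4 of 9 in III, 7 of 13 in IV, 5 of 14 in V and 1 of 21 among assembly factors. Without NrasG12D library 3, 73 of the 97 rose and 0 fell, against 18.0% and 19.4% of all genes, and the median log2 fold change was 0.53. Leaving out any of the other libraries left 0 members past the threshold.

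**Figure D1:**
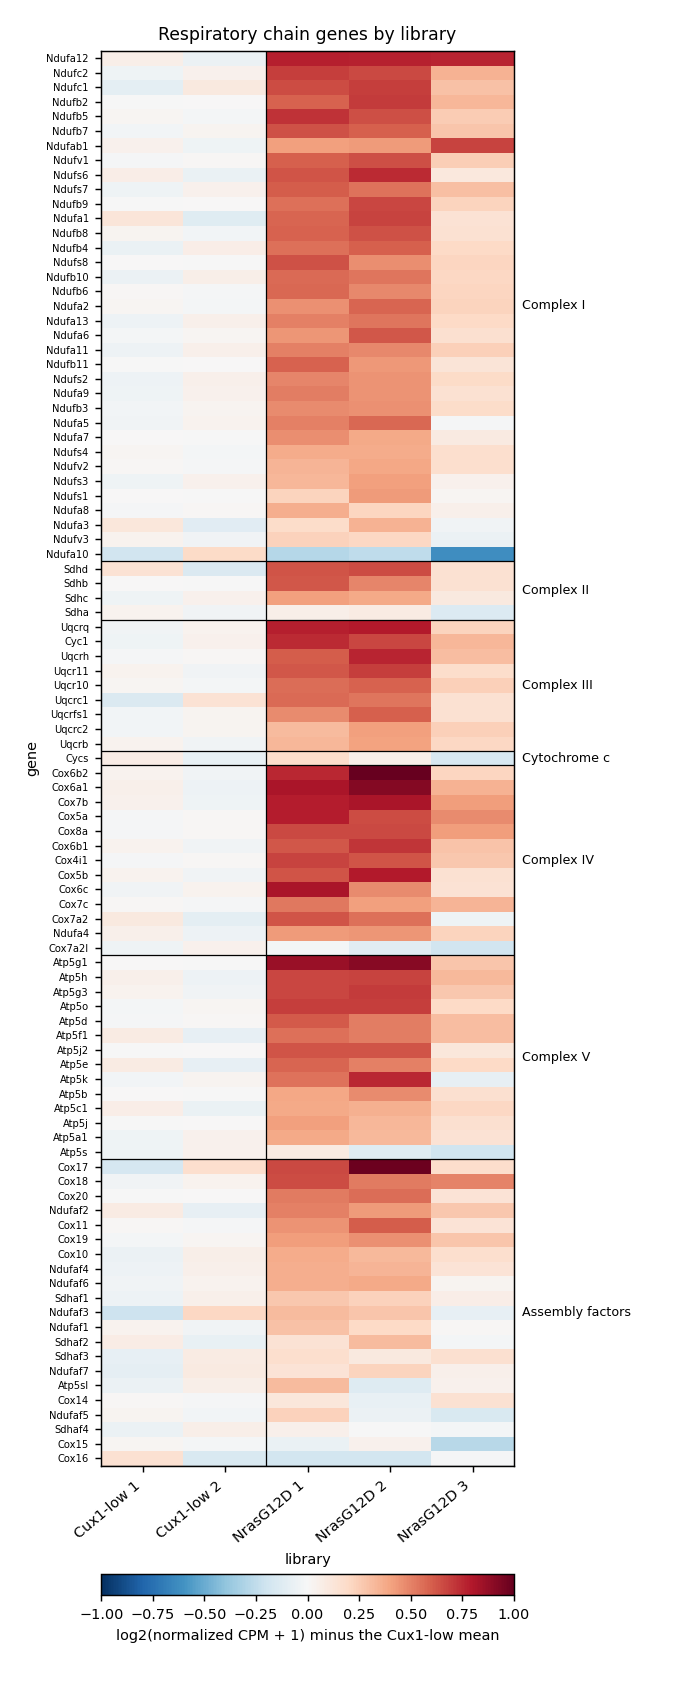
Heat map of log2(normalized CPM + 1) minus the Cux1-low mean for all 97 genes (rows, by complex and ordered by log2 fold change) in the 5 libraries (columns); red is higher and blue lower, and the scale ends at 1 in each direction. NrasG12D libraries 1 and 2 are red for most rows of every complex, library 3 is paler, and Ndufa12 is equally red in all 3.

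**Figure D2:**
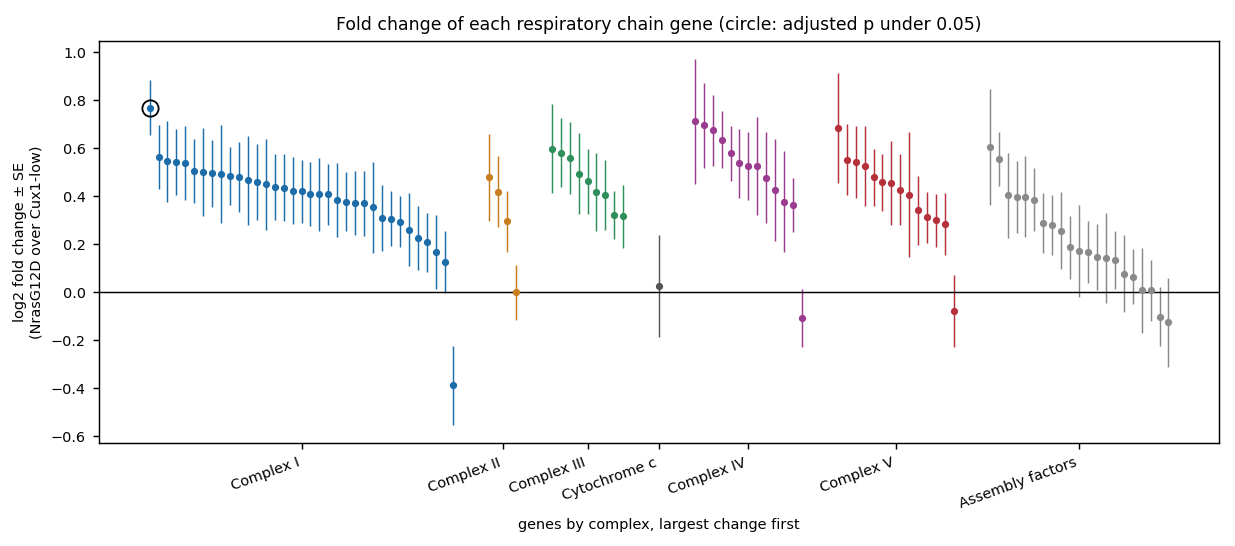
Log2 fold change (NrasG12D over Cux1-low, log2(normalized CPM + 1) scale) with its standard error from limma for each of the 97 genes, by complex. Of the points, 91 lie above 0, and the circle marks Ndufa12, the gene with an adjusted p under 0.05.

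NrasG12D library 3 was the lowest of its group for 92 of the 97 genes (94.8%), against 39.0% of all genes. It was still above both Cux1-low libraries for 77, which held for 4487 of all 11352 genes. For each gene, the place of library 3 was expressed on a scale from 0 at the Cux1-low mean to 1 at the mean of NrasG12D libraries 1 and 2. This was done for genes whose 2 means differed by at least 20% of the Cux1-low mean. Of the members, 80 met this, all of them higher in NrasG12D, and the median position was 0.34. Over all 3191 genes that were higher by the same margin it was 0.35. Library 3 lay nearer to the Cux1-low mean for 67 of the 80 members (83.8%), and for 66.6% of the 3191 genes. The genes where it lay nearest to or beyond libraries 1 and 2 were Ndufab1 (1.79), Ndufa12 (0.981) and Cox18 (0.812).

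**Figure D3:**
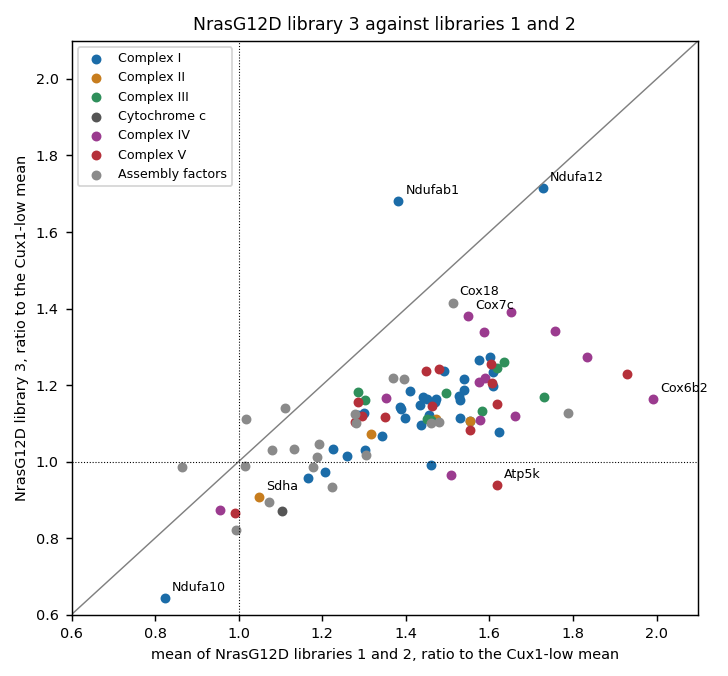
Level in NrasG12D library 3 (y axis) against the mean of NrasG12D libraries 1 and 2 (x axis), both as ratios to the Cux1-low mean, for the 97 genes coloured by complex; the grey line marks equal ratios and the dotted lines a ratio of 1. Most genes lie below the grey line, Ndufa12 lies close to it, Ndufab1 lies above it, and Ndufa10 lies below 1 on both axes.

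Other properties moved with the same libraries. Genes of short exon length were higher in NrasG12D in general. Exon length here was the union of exons over all annotated transcripts of a gene, so it can exceed transcript length. Among 4 equal bins of all genes by exon length, the median log2 fold change was 0.15 in the shortest bin (up to 2836.5 bases) and -0.11 in the longest, and 67 of the 97 members lay in the shortest bin, with a median of 0.42. The 30 members in the 3 longer bins had medians of 0.29, 0.54 and 0.23. In the bin of most abundant genes the median was 0.10 over all genes and 0.45 over its 42 members. Erythroid markers were also higher: all 11 listed of 15 had a positive sign. Their summed level was 4846 and 5264 normalized CPM in Cux1-low and 8288, 11600 and 5900 in NrasG12D libraries. Car1 and Car2 made up most of that sum. Klf1, the erythroid master regulator, was at 166 and 209 against 423, 533 and 270. The adult globin genes Hba-a1, Hba-a2, Hbb-bs and Hbb-bt were not analysed here. B cell markers (8 listed of 10) summed to 58.1 and 79.4 against 269, 551 and 60.5, and neutrophil and monocyte markers (7 of 9) to 7739 and 10857 against 19779, 13212 and 8383. The neutrophil and monocyte sum was mostly Mpo, at 6253 and 8799 against 16346, 10968 and 6917. Of those 7 markers, 6 had a positive sign, and Lyz2 had a negative one (log2 fold change -0.32). Megakaryocyte markers (7 of 7, none positive) were lower, at 1336 and 1377 against 673, 567 and 1153. Eosinophil and mast cell markers (6 of 6) summed to 1335 and 1160 against 1203, 898 and 1146, with 3 positive and 3 negative signs. Of these, 2 fell by limma, Epx (log2 fold change -1.11) and Prg2 (-1.27), both with an adjusted p = 0.043. The T and NK cell markers Nkg7 and Il2rb (2 of 5 listed) summed to 226 and 244 against 285, 180 and 324. No listed marker of these types was at 0 in any library. Apart from Epx and Prg2, none of them passed limma over all 5 libraries. Without NrasG12D library 3, 10 of 11 erythroid, 8 of 8 B cell and 5 of 7 neutrophil and monocyte markers rose. So did 1 of the 2 T and NK cell markers. In that fit 5 of 7 megakaryocyte and 3 of 6 eosinophil and mast cell markers fell. Over all genes, 18.0% rose and 19.4% fell. The part of exon or transcript length and of these cell types in the respiratory chain values was not tested. In bulk libraries, more cells of a type and more RNA per cell cannot be told apart.

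Complex I, the NADH dehydrogenase, had 34 of 35 genes with a positive sign and a median of log2 fold changes of 0.42. Its summed level was 3450 and 3572 normalized CPM in Cux1-low and 4842, 4876 and 3863 in NrasG12D libraries, a ratio of 1.29. NrasG12D libraries were all higher for 31 of the 35 genes. Without NrasG12D library 3, 30 of 35 rose. Counts for each complex and for the assembly factors stand beside these shares over all genes. All NrasG12D libraries were higher for 26.5%, 14.8% were higher at an unadjusted p under 0.05, and 18.0% rose without library 3.

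Ndufa12, an accessory subunit needed for full assembly of the peripheral arm, was the gene that rose. Its level was 37.1 and 34.2 normalized CPM in Cux1-low, against 61.8, 61.3 and 61.1 with NrasG12D (35.6 ± 2.04, SD, n = 2, against 61.4 ± 0.382, SD, n = 3). The 3 NrasG12D libraries were nearly equal, library 3 included, and the groups were far apart. On the log2 scale the change was 0.77 (SE 0.11, limma adjusted p = 0.043), and every value rested on 710 to 1205 reads. Without Cux1-low library 1, Cux1-low library 2, NrasG12D library 1 and NrasG12D library 2 in turn, the limma adjusted p was 0.365, 0.339, 0.178 and 0.0832, with log2 fold changes of 0.71 to 0.83. Without NrasG12D library 3 it was 0.0046. The gene lies on chromosome 10 (94198720 to 94221443, plus strand, mm10).

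The chromosomal neighbourhood of Ndufa12 held other genes that differed. Of 16 listed genes within 1 Mb, 2 passed the same test, where 1.13% of all genes did, and 11 had a positive sign, with a median log2 fold change of 0.12. The 2 were the netrin gene Ntn4, 452 kb away (log2 fold change 2.07, limma adjusted p = 0.0395), and the antisense gene Gm15915, which lies within the span of Ntn4 (mean 0.0486 against 28.7 normalized CPM, limma adjusted p = 0.00143). Whether counting used strand is not known here, so reads of Ntn4 and Gm15915 cannot be told apart. Nr2c1, the nearest listed gene at 1.51 kb, had a log2 fold change of 0.07 (SE 0.15), and Vezt at 163 kb one of 0.13. Genes on both sides of Ndufa12 that did not pass had values of 1.55 for Fgd6 and -1.07 for Usp44, and 1.34 for Cep83os and -0.87 for Plxnc1. The neighbours were taken by position alone.

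The 7 core subunits of complex I that are encoded in the nucleus carry the flavin and iron-sulphur clusters. All 7 had a positive sign and none passed; the 3 given here were picked for their role after their values were seen. Ndufv1, which binds NADH and flavin, was at 248 and 252 normalized CPM against 378, 391 and 297. The log2 difference was 0.50 (SE 0.14, limma adjusted p = 0.0863). Ndufs7, at the junction with coenzyme Q, was at 163 and 173 against 256, 245 and 207 (log2 fold change 0.48, limma adjusted p = 0.0765). Ndufs1, which carries several clusters, was at 211 and 210 against 247, 284 and 214. In all 3 the lowest NrasG12D library was library 3, which for Ndufs1 was barely above Cux1-low.

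Of the 28 accessory genes, 27 had a positive sign. Ndufc2, which sits in the membrane arm, was at 113 and 119 against 187, 184 and 147 normalized CPM (log2 fold change 0.57, SE 0.13, limma adjusted p = 0.0726). Its neighbour in the complex, Ndufc1, was at 25.7 and 29.6 against 43.9, 45.1 and 34.1 (log2 fold change 0.55). The groups did not overlap for either gene. Per kb of exon, Ndufb9 and Ndufc2 had the highest mean levels of complex I, at 210 and 199 normalized CPM per kb. Ndufb9 was at 173 and 174 against 254, 276 and 203 normalized CPM.

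Ndufa10 went against the rest of the complex. This accessory subunit, on chromosome 1 (92439010 to 92473860, minus strand), had 262 and 341 normalized CPM in Cux1-low, against 246, 250 and 194 with NrasG12D. The log2 difference was -0.39 (SE 0.16, limma adjusted p = 0.161). The groups did not overlap, but the 2 Cux1-low libraries differed from each other by more than Cux1-low library 1 differed from NrasG12D libraries 1 and 2. Ndufv3, a small subunit of the NADH-oxidizing module, had the next lowest value, at 70.6 and 67.5 against 81.2, 79.9 and 66.1 (log2 fold change 0.13). Ndufab1, the mitochondrial acyl carrier protein, chosen after its values were seen, was 1 of 3 members where library 3 was the highest NrasG12D library, with Cox14 and Cox16, at 7.35 and 6.88 against 9.80, 9.87 and 11.97. It rested on 143 to 197 reads per library, and 1 pseudogene bears its name in the annotation.

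Complex II, the succinate dehydrogenase, has 4 subunits, all of nuclear origin, and is also an enzyme of the citric acid cycle. Its summed level was 1255 and 1168 normalized CPM against 1552, 1534 and 1221, a ratio of 1.18, and the groups overlapped. The flavoprotein gene Sdha, which holds the succinate site, had 605 and 574 in Cux1-low, against 614, 622 and 535 with NrasG12D. Its groups overlapped, and its log2 fold change was -0.0002 (SE 0.11). The sign depended on single libraries: it was 0.07 without NrasG12D library 3. The other 3 genes were higher in every NrasG12D library. The iron-sulphur subunit gene Sdhb was at 217 and 215 against 333, 304 and 240 (log2 fold change 0.42, SE 0.15, limma adjusted p = 0.120). The membrane anchors Sdhd and Sdhc had log2 fold changes of 0.48 and 0.30. Sdhd was at 331 and 271 against 465, 471 and 333, so that library 3 was close to Cux1-low library 1. None of the 4 passed, 2 had an unadjusted p under 0.05, robust limma called 0, and without NrasG12D library 3 Sdhb, Sdhc and Sdhd rose. A difference between Sdha and the other 3 genes was not tested.

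Complex III, the cytochrome bc1 complex, was uniform. All 9 genes were higher in every NrasG12D library, and the median log2 fold change was 0.46. The summed level was 1445 and 1561 normalized CPM against 2238, 2260 and 1756, a ratio of 1.39. None of the 9 passed limma over all genes, although all 9 had an unadjusted p under 0.05, robust limma called 0, and without NrasG12D library 3, 8 rose. Cyc1, the cytochrome c1 subunit (chromosome 15, 76343523 to 76346260, plus strand), was at 296 and 312 against 511, 482 and 383. The log2 difference was 0.58 (SE 0.14, limma adjusted p = 0.0758). Uqcrq, a small subunit, had the largest value of the complex at 0.60 (SE 0.18) and was at 103 and 108 against 181, 183 and 123. The hinge protein gene Uqcrh had a log2 fold change of 0.56, and 2 pseudogenes bear its name. The smallest values belonged to Uqcrb, at 30.7 and 29.3 against 38.1, 40.1 and 34.8 (0.32), and the core protein gene Uqcrc2 (0.32). Per kb of exon, Uqcr10 and Cyc1 had the highest mean levels, at 199 and 184 normalized CPM per kb.

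Cycs, the somatic cytochrome c that carries electrons from complex III to complex IV and that triggers caspase activation when released, stood at a low level. Its level was 5.05 and 4.43 normalized CPM in Cux1-low, against 5.49, 4.96 and 4.13 with NrasG12D. These values rested on 68 to 107 reads, the groups overlapped, and the log2 fold change was 0.03 (SE 0.21). With columns rescaled to a common sum it was -0.03. Its mean was 1.41 normalized CPM per kb, against 184 for Cyc1. The annotation holds 2 pseudogenes named after Cycs, and how reads divide among such copies is uncertain.

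Complex IV, the cytochrome c oxidase, had the largest summed ratio of the 5 complexes, 1.46. Its sum was 1451 and 1424 normalized CPM in Cux1-low and 2282, 2273 and 1742 in NrasG12D libraries. A positive sign was seen in 12 of 13 genes, with a median of 0.53, and NrasG12D libraries were all higher for 11. None passed limma, although 10 had an unadjusted p under 0.05. Robust limma called 0, and without NrasG12D library 3, 11 rose.

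Cox5a, a matrix-side subunit with the smallest p of the complex and chosen after its values were seen (chromosome 9, 57521274 to 57532426, plus strand), was at 117 and 120 against 205, 187 and 165 normalized CPM. The log2 difference was 0.64 (SE 0.12, limma adjusted p = 0.0549). Cox8a was at 140 and 142 against 224, 224 and 189 (0.58, SE 0.11, limma adjusted p = 0.0581). Cox7b was at 67.1 and 62.9 against 113, 115 and 87.1 (0.68, SE 0.15, limma adjusted p = 0.0674). In these 3 genes the Cux1-low pair lay close together and below all NrasG12D libraries. The highest levels per kb of exon in the complex belonged to Cox4i1, 302, and Cox6a1, 299 normalized CPM per kb. Cox4i1, the regulatory subunit that binds adenine nucleotides, was at 364 and 372 against 589, 571 and 445 normalized CPM (0.53). Cox6a1 was at 156 and 146 against 267, 287 and 192 (0.70, limma adjusted p = 0.0786).

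Several complex IV subunits exist as paralogues. Cox6b2, known from testis, had the largest log2 fold change of the complex, 0.71, with a wide error (SE 0.26, limma adjusted p = 0.125). It was at 41.6 and 39.6 against 69.0, 92.8 and 47.2 normalized CPM. Its common counterpart Cox6b1 was at 156 and 148 against 233.6, 249 and 185 (0.54). Per kb of exon, Cox6b2 made up 14.6% of the pair in both Cux1-low libraries and 15.9%, 19.2% and 14.0% in NrasG12D libraries, so the groups overlapped. Cox7a2l, which joins complexes III and IV into supercomplexes, was the member of the complex with a negative sign, and its difference from the others was not tested. It was at 47.1 and 49.9 against 47.8, 44.8 and 42.3 (-0.11, SE 0.12), while its paralogue Cox7a2 was at 85.7 and 74.5 against 124, 117 and 77.3 (0.38, SE 0.21). Cox7a2l was 25.96% and 29.96% of the pair per kb in Cux1-low and 19.7%, 19.6% and 25.91% in NrasG12D libraries. Those ranges did not overlap, but the share in NrasG12D library 3 lay just under that in Cux1-low library 1. Ndufa4, once counted with complex I, had a log2 fold change of 0.36. Cox7c, also chosen after its values were seen, was at 2.35 and 2.31 against 3.80, 3.42 and 3.22, on 48 to 74 reads per library.

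Complex V, the ATP synthase, had 13 of 14 genes with a positive sign and a median of log2 fold changes of 0.44. Its sum was 5131 and 5142 normalized CPM against 6956, 7017 and 5805, a ratio of 1.28, and the 2 catalytic head genes made up most of it. Atp5b, the catalytic beta subunit, had the highest level of all 97 genes, 626 normalized CPM per kb. It was at 2290 and 2269 against 2987, 3164 and 2547 normalized CPM (log2 fold change 0.34, SE 0.15, limma adjusted p = 0.163). Atp5a1, the alpha subunit, was at 1396 and 1485 against 1877, 1806 and 1589 (0.28). All NrasG12D libraries were higher for both. None of the 14 genes passed limma, 10 had an unadjusted p under 0.05, robust limma called 0, and without NrasG12D library 3, 13 rose.

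In the central stalk, which turns within the head, Atp5d, chosen after its values were seen, was at 260 and 264 against 401, 374 and 326 (0.48, SE 0.12, limma adjusted p = 0.076). In the peripheral stalk, which holds the head still, Atp5h was at 43.8 and 41.0 against 67.8, 68.2 and 53.2 (0.55, limma adjusted p = 0.0815). The rotor ring is built from subunit c, which several genes encode. Atp5g3 (chromosome 2, 73908447 to 73911326, minus strand) was at 268 and 254 against 416, 423 and 315 (0.54, SE 0.15, limma adjusted p = 0.0835). Atp5g1 was at 10.8 in both Cux1-low libraries against 20.5, 21.2 and 13.2 (0.68, SE 0.23). Per kb of exon, Atp5g1 was 1.76% and 1.85% of the pair in Cux1-low and 2.14%, 2.17% and 1.83% in NrasG12D libraries. Of this pair, Atp5g3 thus held nearly all of the level per kb in both groups. That share depends on the exon lengths used, 4912 bases for Atp5g1 and 2181 for Atp5g3. Atp5g2 was not analysed here. Atp5s, coupling factor B, was the exception in complex V, at 27.5 and 29.3 against 30.2, 26.0 and 24.5 (-0.08).

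**Figure D4:**
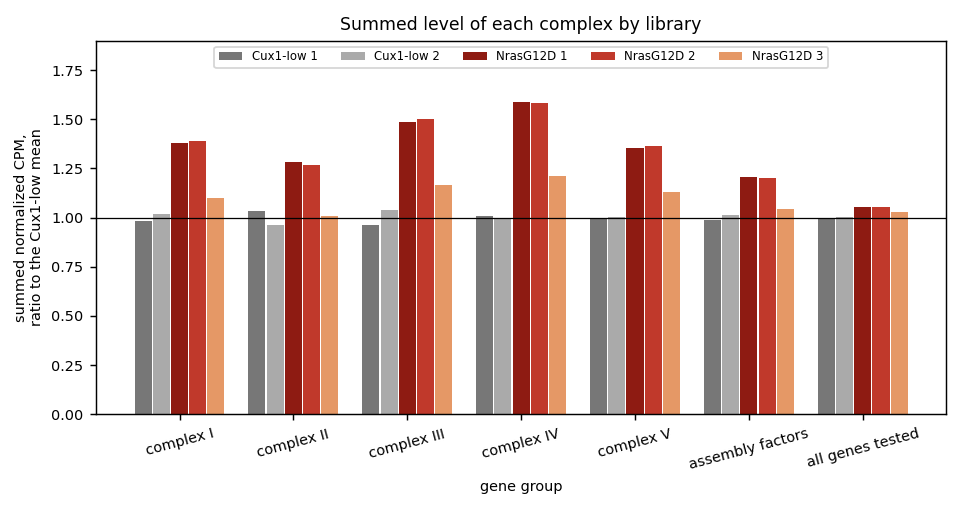
Summed normalized CPM of each complex, of the assembly factors and of all genes, in each of the 5 libraries, as a ratio to the Cux1-low mean (y axis from 0). NrasG12D libraries 1 and 2 stand above 1 in every group, most in complex IV. Library 3 stands between them and both Cux1-low libraries, except in complex II, where it is close to 1 and below Cux1-low library 1.

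**Figure D5:**
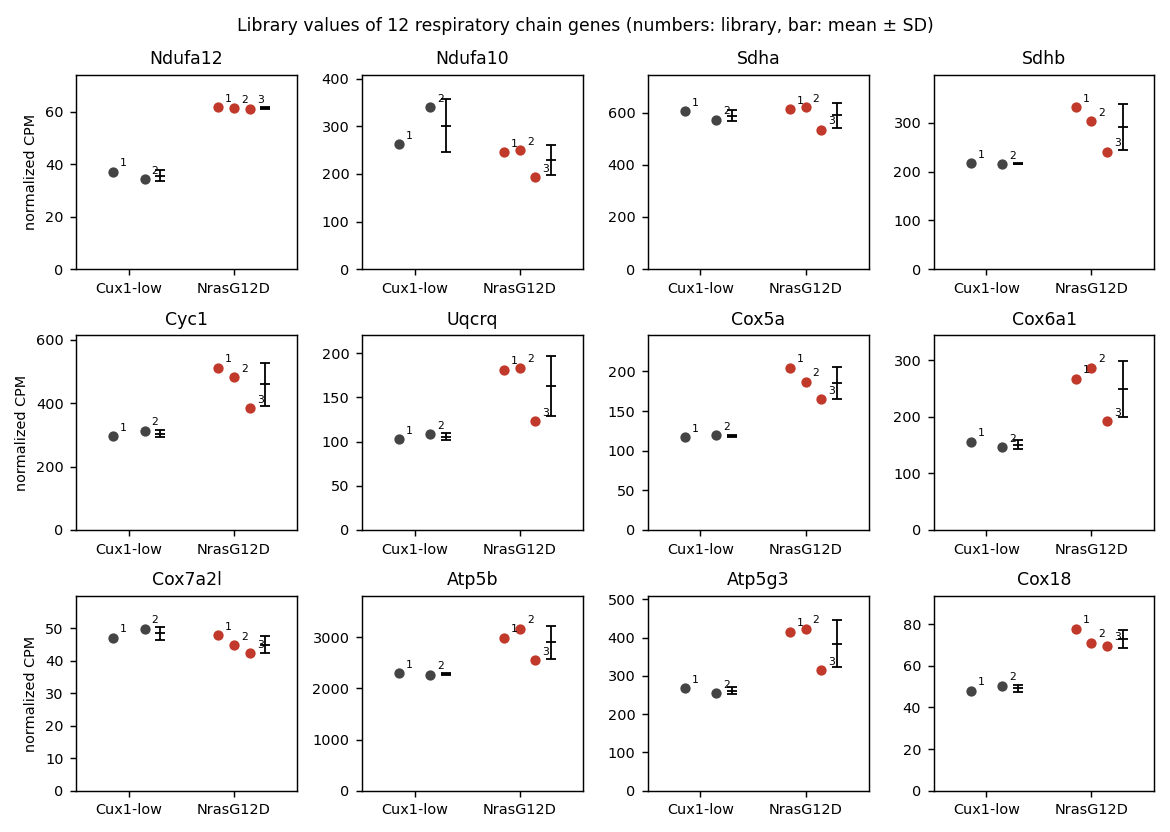
Normalized CPM of 12 genes in the 2 Cux1-low and 3 NrasG12D libraries; points are libraries with their number, bars are the mean ± SD, and each y axis starts at 0. Ndufa12 and Cox18 keep NrasG12D library 3 with libraries 1 and 2, Sdha and Cox7a2l overlap between groups, and Ndufa10 is lower in NrasG12D.

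Assembly factors and related genes showed smaller values than the subunits. Their median log2 fold change was 0.17 over 21 genes, against 0.43 over the 76 subunit and cytochrome c genes, and NrasG12D libraries were all higher for 10 of the 21. Their sum was 861 and 886 normalized CPM against 1053, 1052 and 910, a ratio of 1.15. None passed limma, and robust limma called 0. At an unadjusted p under 0.05, 4 were higher (19.0%), against 14.8% of all genes. Without NrasG12D library 3, 8 rose (38.1%), against 18.0% of all genes. The median was 0.39 for the 9 assembly factors of complex IV, 0.17 for the 7 of complex I and 0.14 for the 4 of complex II. Assembly factors also had longer exons than the subunit and cytochrome c genes (median 2978 against 1778.5 bases). Their median Cux1-low level was lower (35.8 against 92.4 normalized CPM). The difference between subunits and assembly factors was not tested, and neither was the part of exon length or level in it. Cox18, which inserts a mitochondrially encoded subunit of complex IV into the membrane, was at 48.0 and 50.5 against 77.9, 71.1 and 69.7 (0.55, SE 0.11, limma adjusted p = 0.0604). The copper chaperone Cox17 was at 33.3 and 42.1 against 59.9, 74.98 and 42.5 (0.61, SE 0.24), and Cox20 had a log2 fold change of 0.41. At the other end, Cox15, an enzyme of haem a synthesis, was at 142 and 137 against 133, 144 and 115 (-0.10). Cox16 was at 11.3 and 9.001 against 8.77, 8.79 and 10.02 (-0.13), and Sdhaf4 at 29.7 and 32.2 against 32.0, 30.8 and 30.6 (0.01). The signs of Cox16 and Sdhaf4 depended on single libraries and on the scaling.

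Genes that work with the chain but fall outside the symbol rule were counted from fixed lists. None of their 119 listed genes passed limma over all genes. At an unadjusted p under 0.05 there were 37 (31.1%), against 31.4% of all genes. Of these, 34 were higher and 3 lower, where 14.8% of all genes were higher and 16.5% lower. Robust limma called 0. Without NrasG12D library 3, 38 of the 119 rose and 3 fell, against 18.0% and 19.4% of all genes. Mitochondrial protein import genes had 27 of 28 positive signs and a median log2 fold change of 0.32. Without library 3, 15 of the 28 rose, against the same 18.0%. The outer membrane pore Tomm40 was at 195 and 222 against 346, 317 and 261 normalized CPM (0.55, limma adjusted p = 0.0798). All 7 genes of adenine nucleotide and phosphate exchange were positive (median 0.32). Among them Slc25a5, an ADP/ATP carrier, was at 334 and 324 against 489, 447 and 418 (0.45, limma adjusted p = 0.0727). All 3 listed ATP synthase genes outside the rule were positive. Atpif1, the inhibitor that blocks ATP hydrolysis by complex V, was at 341 and 344 against 581, 707 and 454 (0.73, limma adjusted p = 0.0765).

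The remaining lists had smaller medians. Assembly factors outside the rule had 28 of 34 positive signs and a median of 0.17, and Uqcc2, a complex III assembly factor, was at 41.1 and 36.2 against 61.6, 56.7 and 53.1 (0.55, limma adjusted p = 0.0726). Coenzyme Q synthesis genes had 11 of 13 positive signs (median 0.22). Its member Adck3, an atypical kinase of that pathway, went the other way, at 117 and 98.7 against 47.9, 42.0 and 69.6 (-1.04, SE 0.22, limma adjusted p = 0.0621). Other electron donors to coenzyme Q had 6 of 8 positive signs (median 0.15). Genes of mitochondrial DNA transcription and replication had 6 of 13 positive signs and a median of -0.03. Mterf4, which acts in mitochondrial ribosome assembly, was at 34.2 and 54.3 against 19.6, 23.7 and 22.8 (-0.94, limma adjusted p = 0.0705). Regulators of mitochondrial gene expression had 9 of 13 positive signs and a median of 0.10. Gabpb1, a subunit of the ETS factor GABP, was at 176 and 153 against 118, 122 and 131 (-0.41, limma adjusted p = 0.0835). The related genes Gabpb2 and Gabpa had log2 fold changes of 0.43 and 0.04. Max, the partner of MYC, was at 69.3 and 84.2 against 104, 104 and 102 (0.43, limma adjusted p = 0.0838), while Myc itself had -0.27. Nrf1, Yy1 and Esrra had 0.08, 0.10 and 0.40. The genes of the mitochondrial DNA were not analysed here.

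The promoters of the members were searched for the core letters of factors known to act on respiratory chain genes, since the members were higher together. RefSeq promoters (GRCm38.p6, 250 bases before to 50 after the start) were matched for 82 of the 97 genes. The strings were CGCANGCG for NRF1, CCGGAAG for the ETS family, AAGATGGC for YY1, CACGTG for the E-box of MYC and MAX, and TCAAGGTCA for oestrogen-related receptors (ERR). Each was read on both strands, and none of the 5 strings contains another. The following stretches, written 5′ to 3′ along the gene with the matching letters in capitals, show the match in the member with the smallest p for each of 4 motifs (Cox6a1 and the longer stretch of Atp5g3 were chosen after their values were seen). They are Ndufa12 with NRF1 letters (chr10:94198905-94198934, plus), Cox6a1 with NRF1 letters (chr5:115349056-115349085, minus), Cox8a with ETS letters (chr19:7217603-7217632, minus), Ndufs7 with YY1 letters (chr10:80249462-80249491, plus) and Atp5g3 with ERR letters (chr2:73911327-73911446, minus, the 120 bases before the start). For Ndufa12 and Ndufs7 the RefSeq start used lies downstream of the GENCODE start of the gene, so both stretches lie inside the annotated gene.
Ndufa12: ctccagctctgCGCCTGCGtagaacgacct
Cox6a1: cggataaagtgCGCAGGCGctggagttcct
Cox8a: tttccgaaataCTTCCGGctcgggcgtccg
Ndufs7: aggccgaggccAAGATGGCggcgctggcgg
Atp5g3: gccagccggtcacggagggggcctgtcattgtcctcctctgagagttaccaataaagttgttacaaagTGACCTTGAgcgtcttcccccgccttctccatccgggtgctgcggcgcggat

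The NRF1 letters were present in 27 of the 82 promoters (32.9%), against 18.6% of the 9166 promoters of listed genes and 8.42% of all 27025 promoters of the same length. The ETS letters were present in 23 (28.0%), against 19.6% and 9.12%. The YY1 letters were present in 12 (14.6%), against 5.09% and 2.88%, and in 10 of these 12 a match lay after the start, as in Ndufs7. The E-box was present in 6 (7.32%), against 10.6% and 7.24%, and the ERR letters in 2, Atp5g3 and Sdhd, against 0.240% and 0.407%. At least 1 of the 5 strings was found in 54 of the 82. The median log2 fold change was 0.41 for the 27 promoters with NRF1 letters and 0.41 for the 55 without, 0.42 and 0.41 for ETS, 0.43 and 0.41 for YY1, 0.48 and 0.41 for the E-box (6 promoters), and 0.51 and 0.41 for ERR (2 promoters). A match is a description of letters and not evidence of binding.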

How the data were processed

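The members and all gene lists were chosen with earlier results of these data known. Per the submitters' processing notes, TopHat, HTSeq and edgeR were used with the builds hg19 and mm10, with no version or role stated. Strand use in counting is not stated either. The authors' deposited table gives 1 signal value per library, headed CPM per the file headers. At least 99.99% of these are whole multiples of 1 read within a tolerance of 0.001 of a step. Columns sum to 971746 to 1026780 over the listed genes, so they are not plain CPM. They were treated as a normalized signal, and no count test was run. The deposited table also holds the authors' log2 fold changes, likelihood ratio scores and p-values. The lowest mean over the 11352 listed genes is 1.67, so genes below that level were not analysed here.

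The test was limma 3.58.1 (R 4.3.3) with a trended variance on log2(normalized CPM + 1), 3 against 2 libraries, with no block. Genes of at least 1 in at least 2 libraries were kept, which removed no member, and p-values were adjusted over all 11352 genes. The script was tested on simulated data. Chi-square statistics of the reads between libraries were at least 15.3 per degree of freedom, so none repeats another. Exon lengths and positions come from GENCODE M21 (mm10), where 96 members matched directly and 1 by an older symbol. The rule for named genes took the members called, paralogues, and the highest levels per kb and the largest and smallest changes of each complex. It also took the 2 smallest p of each related list, not all of which are printed. In the lists of Slc25a5 and Atpif1, Vdac1 and 2010107E04Rik had a smaller p. Alternatives covered pseudocount, filter, scaling, variance model, block and omitted libraries. Python 3.11.15, pandas 2.3.3 and matplotlib 3.10.9 were also used.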

Additional observations from a re-analysis of the deposited data

How the results depend on the processing

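The median log2 fold change stayed positive for all members and for each complex under every alternative run (0.34 to 0.53 over all members). With the replicate block, 66 members were called higher, 27 in complex I, 3 in complex II, 8 in complex III, 11 in complex IV, 13 in complex V and 4 among assembly factors, and 32 genes of the related lists were called higher and 3 lower. NrasG12D library 3 has no partner number and so does not enter that contrast. The numbers are not known to pair libraries: deviations of same-numbered libraries correlated at -0.19 and -0.004. Leaving out 1 library at a time gave 0 to 73 members higher, 0 to 30 in complex I, 0 to 3 in complex II, 0 to 8 in complex III, 0 to 11 in complex IV, 0 to 13 in complex V and 0 to 8 among assembly factors, with 0 to 38 higher and 0 to 3 lower in the related lists. In each case the highest count came without NrasG12D library 3, and every other omission gave 0 members. Over all genes, 29 were higher and 99 lower, against 1892 and 2271 with the block, 2043 and 2200 without NrasG12D library 3, 10 and 12 without NrasG12D library 2, and 3 and 0 without each of the others in turn. Pseudocount 0.1 gave 26 and 63, rescaled columns 31 and 182, and quantile normalization 63 and 165. Ndufa12 had a limma adjusted p of 0.0371 to 0.0479 over the scaling, filter, pseudocount and variance alternatives. The summed ratio of complex V was 1.14 with quantile normalization. Signs changed for genes near 0. Quantile normalization gave log2 fold changes of 0.012 for Atp5s and 0.10 for Cox16, and rescaled columns gave -0.028 for Cycs and -0.054 for Sdhaf4. The block gave 0.069 for Sdha and -0.079 for Nkg7. Leaving out 1 library gave -0.276 to 0.025 for Cox16, -0.052 to 0.118 for Cycs, -0.040 to 0.069 for Sdha, -0.048 to 0.065 for Sdhaf4 and -0.079 to 0.365 for Nkg7. The causes were not tested. A count test with edgeR on the inferred reads was not run, since the values were treated as a normalized signal. Cycs and Cox7c rest on few inferred reads, and what limits the other calls was not tested.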
